A study of Mus musculus with 60 samples.

Results

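The Hox genes of the developing mouse jaws are the subject here, taken as every gene on the array whose symbol is Hox, a cluster letter from a to d and a number. Of 18193 genes with a probe set of their own, 33 were Hox genes. They come from 4 clusters, HoxA on chromosome 6 (9 genes measured), HoxB on chromosome 11 (9), HoxC on chromosome 15 (7) and HoxD on chromosome 2 (8). Hox genes without a probe set assigned to them alone were not analysed here. The arrays carry RNA from C57Bl/6 mouse embryos, and the labels name no treatment, mutation or transgene. The lower jaw (mandible) and the upper jaw (maxilla) were each divided into distal and proximal tissue on each of 5 embryonic days from E10.5 to E14.5, which gives 20 groups of 3 arrays and 60 arrays in all. The labels call the tissue distal or proximal bone at every age, although Ibsp, a bone matrix gene, read 2.80 to 6.04 on the arrays of E10.5 and E11.5 and 10.87 to 13.65 on those of E13.5 and E14.5. Hand2, a gene of the ventral arch, read 8.36 to 13.16 on the mandible and 4.68 to 7.76 on the maxilla arrays, as the jaw labels have it. Nothing in the labels tells if a group's arrays are separate embryos, so the p-values measure the spread between these arrays, which may be technical. The stated purpose of the study was a genome-wide record of gene activity while the jaws form.

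Hox genes encode homeodomain transcription factors that give cells their address along the head-to-tail axis. Within a cluster the genes are numbered by their position, an order that follows their axial limits only broadly. Paralog groups 1 to 4 reach the hindbrain, and groups 9 to 13 mark the trunk end, tail and distal limb. The neural crest that fills the first pharyngeal arch, from which both jaws form, carries no Hox expression, while crest of the second arch expresses Hoxa2 and Hoxb2 and that of more posterior arches adds groups 3 and 4. Loss of Hoxa2 turns second-arch skeleton into a copy of first-arch skeleton. In bulk tissue, fewer cells of a type and less RNA per cell cannot be told apart.

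3 Hox genes are shown by the sequence just before their start, since their group means spanned the widest ranges of all 33 and they differed in where the signal was highest: Hoxa2 in the proximal mandible at E12.5, Hoxd1 in the distal maxilla at E12.5 and Hoxd8 in the proximal mandible at E13.5. Each line holds the 250 bases before the RefSeq start, 5′ to 3′ on the gene's strand in build GRCm38.p6, at chr6:52164832-52165081 on the minus strand for Hoxa2, chr2:74762730-74762979 on the plus strand for Hoxd1 and chr2:74704365-74704614 on the plus strand for Hoxd8. Capitals mark matches on either strand to TGATNNAT, the shape of a joint Hox and Pbx site, TGACAG, the core of a Meis site, and CCAAT, a general promoter box.
Hoxa2: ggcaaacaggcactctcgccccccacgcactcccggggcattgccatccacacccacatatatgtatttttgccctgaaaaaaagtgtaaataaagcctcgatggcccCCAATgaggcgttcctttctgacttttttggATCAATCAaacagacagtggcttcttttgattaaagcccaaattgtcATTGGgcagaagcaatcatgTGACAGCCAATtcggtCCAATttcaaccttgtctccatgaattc
Hoxd1: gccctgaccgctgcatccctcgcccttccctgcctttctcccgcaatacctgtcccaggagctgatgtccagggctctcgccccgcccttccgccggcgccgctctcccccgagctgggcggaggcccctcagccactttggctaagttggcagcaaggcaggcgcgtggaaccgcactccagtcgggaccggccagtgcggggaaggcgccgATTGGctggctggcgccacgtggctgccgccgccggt
Hoxd8: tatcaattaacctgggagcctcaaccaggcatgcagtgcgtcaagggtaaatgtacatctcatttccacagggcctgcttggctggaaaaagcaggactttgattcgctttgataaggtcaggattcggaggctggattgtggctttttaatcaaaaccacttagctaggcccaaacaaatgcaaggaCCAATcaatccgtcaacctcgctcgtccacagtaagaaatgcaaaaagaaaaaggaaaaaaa
The Hoxa2 stretch held a TGATNNAT match on the opposite strand beginning 111 bases before the start, a TGACAG match at 44 bases and 4 CCAAT boxes, and its TGACAG match and a CCAAT box abut without overlap. Hoxd1 and Hoxd8 each held a single CCAAT box and neither of the other motifs. RefSeq promoters were at hand for 19 of the 33 measured Hox genes. Among all 24 Hox promoters in the table, 4 held TGATNNAT, 2 held TGACAG and 14 held CCAAT, against 7.7%, 15.9% and 33.8% of 32851 promoters. Hoxa2 was the only entry of the 24 with all 3 motifs. A match of letters is a description and not a binding site.

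Signals are log2 values, so a difference of 1 is a doubling, and they are compared between groups for 1 probe set at a time. A gene with several probe sets was represented by the one whose average over the 60 arrays was highest. The arrays carry no detection calls in these files, so a gene was counted as above the 25th percentile in a group when all 3 arrays exceeded the 25th percentile of their own array, which ran from 4.48 to 4.78 over the 60 arrays. A difference that includes a group at or under 4.78 is at best a lower bound. A flat probe set above that level is not shown to report expression either. A gene is called at an adjusted p under 0.05 (limma, Benjamini-Hochberg over all 18193 genes), and differences are given with their SE. Every position difference is taken within a labelled batch, since distal and proximal pieces of a jaw and age share one. Ages were tested against each other only within a batch, and trends over all 5 ages cross batches, so that age and batch cannot be told apart in them.

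Of the 33 Hox genes, 25 were above the 25th percentile in at least 1 group, 16 of them in all 20 groups, and 16 were above the median of the array in at least 1 group. The other 8, Hoxa4, Hoxa10, Hoxb1, Hoxb6, Hoxc8, Hoxd10, Hoxd11 and Hoxd12, were above the 25th percentile in no group. 17 Hox genes had group means that spanned at least 1 log2 unit, as did 35.8% of all genes, and the median span was 1.03 for Hox genes and 0.78 for all genes. The widest spans belonged to Hoxd1 (6.97), Hoxa2 (5.80), Hoxd8 (4.25), Hoxb2 (3.30) and Hoxc4 (3.25). At the other end Hoxa9, Hoxa11, Hoxa13, Hoxb7, Hoxc9 and Hoxd13 stayed within 0.58 over all 20 groups.

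**Figure D1:**
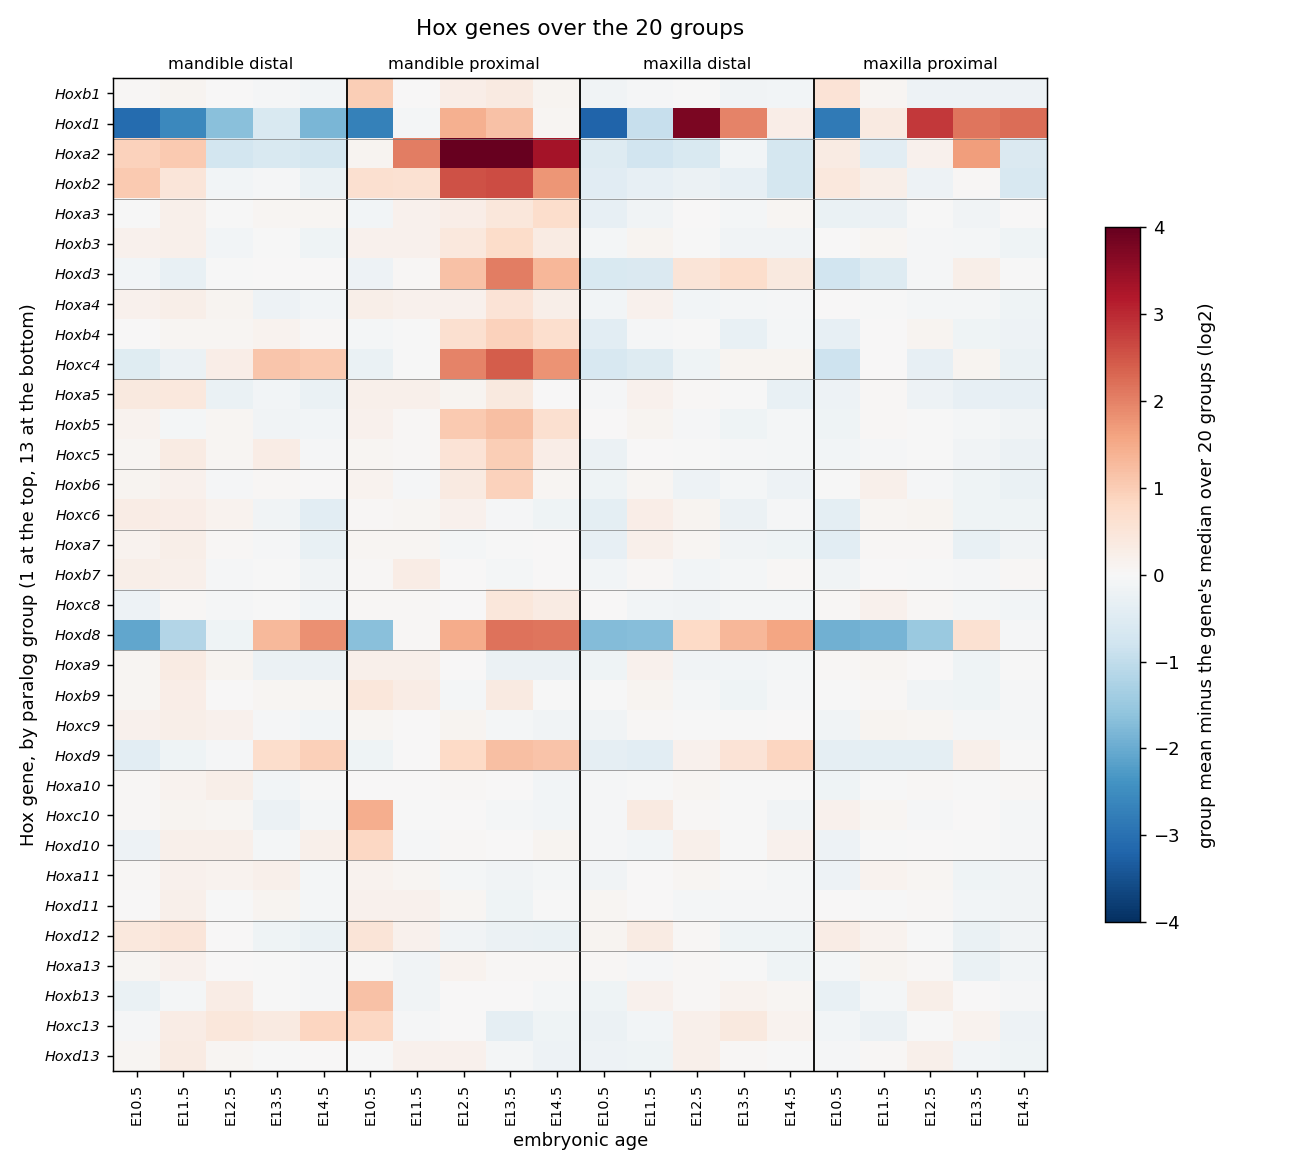
Group mean log2 signal of each of the 33 Hox genes minus that gene's median over the 20 groups, with genes ordered by paralog group from 1 at the top to 13 at the bottom, and columns ordered by jaw, position and embryonic age. Colour stops at 4 units in each direction, which Hoxa2 exceeds. The red block of paralog groups 2 to 5 in the proximal mandible from E12.5 to E14.5, the separate course of Hoxd1, the late red of Hoxd8 and Hoxd9, and Hoxc10, Hoxd10, Hoxb13 and Hoxc13 in the proximal mandible at E10.5 stand out.

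In the mandible, averaged over the 5 ages, 20 of 33 Hox genes differed between positions, against 36.3% of all genes, and 3 of them passed 2-fold as well, against 1.48%. All 13 measured genes of paralog groups 1 to 5 were lower distally (17.9% of all genes), with a median difference of −0.35 against 0.01 over all genes. Of groups 6 to 8, 2 of 6 were lower, Hoxc8 and Hoxd8. Of groups 9 to 13, 4 of 14 were lower (Hoxd9, Hoxc10, Hoxd10 and Hoxb13) and 1 was higher, Hoxc13 (18.3% of all genes). The position difference reached 2-fold for Hoxa2 at −3.02 ± 0.13 (adjusted p = 1.89e-25, limma), Hoxd1 at −1.93 ± 0.13 (adjusted p = 9.44e-18) and Hoxb2 at −1.42 ± 0.09 (adjusted p = 5.67e-18). Hoxd3 followed at −0.95 ± 0.07, Hoxd8 at −0.89 ± 0.10, Hoxc4 at −0.84 ± 0.10 and Hoxb5 at −0.64 ± 0.09. Without the E10.5 arrays 17 Hox genes were called, a count given without its share of all genes. Hoxb1 then lost its call (−0.20, adjusted p = 0.164), and the differences of Hoxb13, Hoxc10 and Hoxd10 turned to 0.08, 0.02 and 0.10.

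Hoxa2, the selector gene of the second arch, read 9.99, 10.07 and 9.99 on the 3 proximal mandible arrays at E12.5, next 9.50, 9.64 and 9.32 a day later and 8.18, 8.15 and 8.59 at E14.5. The distal mandible arrays of these ages ran from 3.86 to 4.49, so every proximal array lay far above every distal one. The position difference came to −5.78 ± 0.28, −5.10 ± 0.28 and −4.03 ± 0.28 at these ages. Since the distal means were under the 25th percentile, the proximal signal is better set against the 4.78 level, which it exceeded at least 37.8-fold at E12.5 and 26.2-fold at E13.5. At E11.5 the proximal arrays read 6.64, 7.21 and 7.21 and the distal ones 6.22, 5.22 and 6.65, so that the groups overlapped, with a difference of −0.99 ± 0.28 (adjusted p = 0.0154). At E10.5 the order was the other way, with 5.72, 5.63 and 6.36 distally and 5.05, 5.30 and 4.88 proximally. This difference of 0.82 ± 0.28 (adjusted p = 0.0304) made Hoxa2 the only Hox gene called higher in the distal mandible at E10.5. The shift in position difference from E10.5 to E11.5, which share a batch, was −1.82 ± 0.40 (adjusted p = 0.00115). The inner ear gene Oc90 differed by position at the same 3 late ages, by −5.31 ± 0.24, −4.52 ± 0.24 and −5.17 ± 0.24, and its arrays at E12.5 read 11.14, 10.99 and 11.16 proximally and 5.89, 5.85 and 5.62 distally. Of the other 3 measured inner ear markers Otx1 and Sox2 were higher distally at these ages, and Tbx1 was at E13.5 and E14.5. The choroid plexus gene Ttr read 8.71, 8.82 and 9.01 proximally and 7.03, 6.86 and 6.88 distally at E12.5. In proximal replicate 2 of E13.5 Ttr was 6.43, within the distal arrays of that age (6.17 to 6.50), and Hoxa2 was 9.64. The part of such tissue in the Hoxa2 values was not tested.

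Hoxb2, the other paralog of group 2 and a partner of Hoxa2 in the hindbrain and second arch, kept a signal above the 25th percentile in every group. Its proximal mandible arrays read 9.39, 9.04 and 9.12 at E12.5, 9.33, 9.38 and 8.99 a day later and 8.47, 7.93 and 8.82 at E14.5. The distal mandible arrays of those ages lay between 6.22 and 6.92 and overlapped with none of them. The difference was −2.65 ± 0.21, −2.64 ± 0.21 and −2.03 ± 0.21 in the same order. Before that Hoxb2 was not called by position in the mandible, at 7.58, 7.84 and 7.62 distally and 7.32, 7.23 and 7.32 proximally at E10.5. In the distal mandible Hoxb2 fell from E10.5 to E11.5 by 0.57 ± 0.21 (adjusted p = 0.034).

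Genes of groups 3 to 5 mark more posterior levels of the embryo than those of group 2. Of their members Hoxb3, Hoxd3, Hoxb4, Hoxc4 and Hoxb5 were lower in the distal mandible at each age from E12.5 to E14.5. Hoxa3 and Hoxa4 were not called at E12.5 (−0.27 and −0.07), nor Hoxa5 and Hoxc5 at E14.5 (−0.30 and −0.32). Proximally Hoxd3 read 6.07, 6.42 and 6.39 at E12.5, 7.22, 7.39 and 6.88 a day later and 6.71, 5.96 and 6.71 at E14.5, against distal arrays of 4.94 to 5.45 at these ages. The groups did not overlap, and the difference was largest at E13.5, −2.01 ± 0.15. Hoxc4 read 7.81, 7.70 and 7.67 at E12.5 and 7.82, 8.98 and 7.76 at E13.5, with distal arrays of 5.87 to 6.12 and of 6.49 to 7.42, and again no overlap. The distal mandible means of Hoxc4 were themselves 5.26 at E10.5 and 6.85 at E13.5, ages of different batches. Hoxb4 gave −0.55 to −0.77 and Hoxb5 −0.76 to −1.32 over the 3 late ages, each called at all 3. The distal mean of Hoxb5 was under 4.78 at each of these ages, so its differences are lower bounds.

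The count of Hox genes called by position in the mandible was 6 at E10.5 (19.1% of all genes called) and 3 at E11.5 (8.93%). For E12.5 it was 13 (32.7%), for E13.5 it was 18 (25.3%) and for E14.5 it was 12 (26.8%). Of the 13 genes of groups 1 to 5, those called lower distally numbered 1, 2, 10, 12 and 10 at the successive ages, against 9.26%, 5.75%, 17.3%, 12.9% and 11.8% of all genes. They include Hoxb1 at E10.5 and Hoxa4 at E13.5 and E14.5, genes above the 25th percentile in no group. At E11.5 the 3 called genes were Hoxa2, Hoxd1 and Hoxd8. At E13.5 the 2 Hox genes called higher distally were Hoxc13 and Hoxa11. From E13.5 to E14.5, within a batch, 9 Hox genes changed in the proximal mandible (21.4% of all genes) and all 9 fell (12.3%), 8 of them from groups 1 to 5. Hoxa2 fell by 1.19 ± 0.28, Hoxb2 fell by 0.83 ± 0.21 and Hoxd3 fell by 0.70 ± 0.15. In the distal mandible 3 changed over the same step (17% of all genes), Hoxd1 by −1.21 ± 0.29, Hoxc13 by 0.50 ± 0.17 and Hoxd10, whose signal was under the 25th percentile. For the change of the position difference over this step limma called 0 Hox genes and 1.7% of all genes, with 5 Hox genes at an unadjusted p under 0.05.

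**Figure D2:**
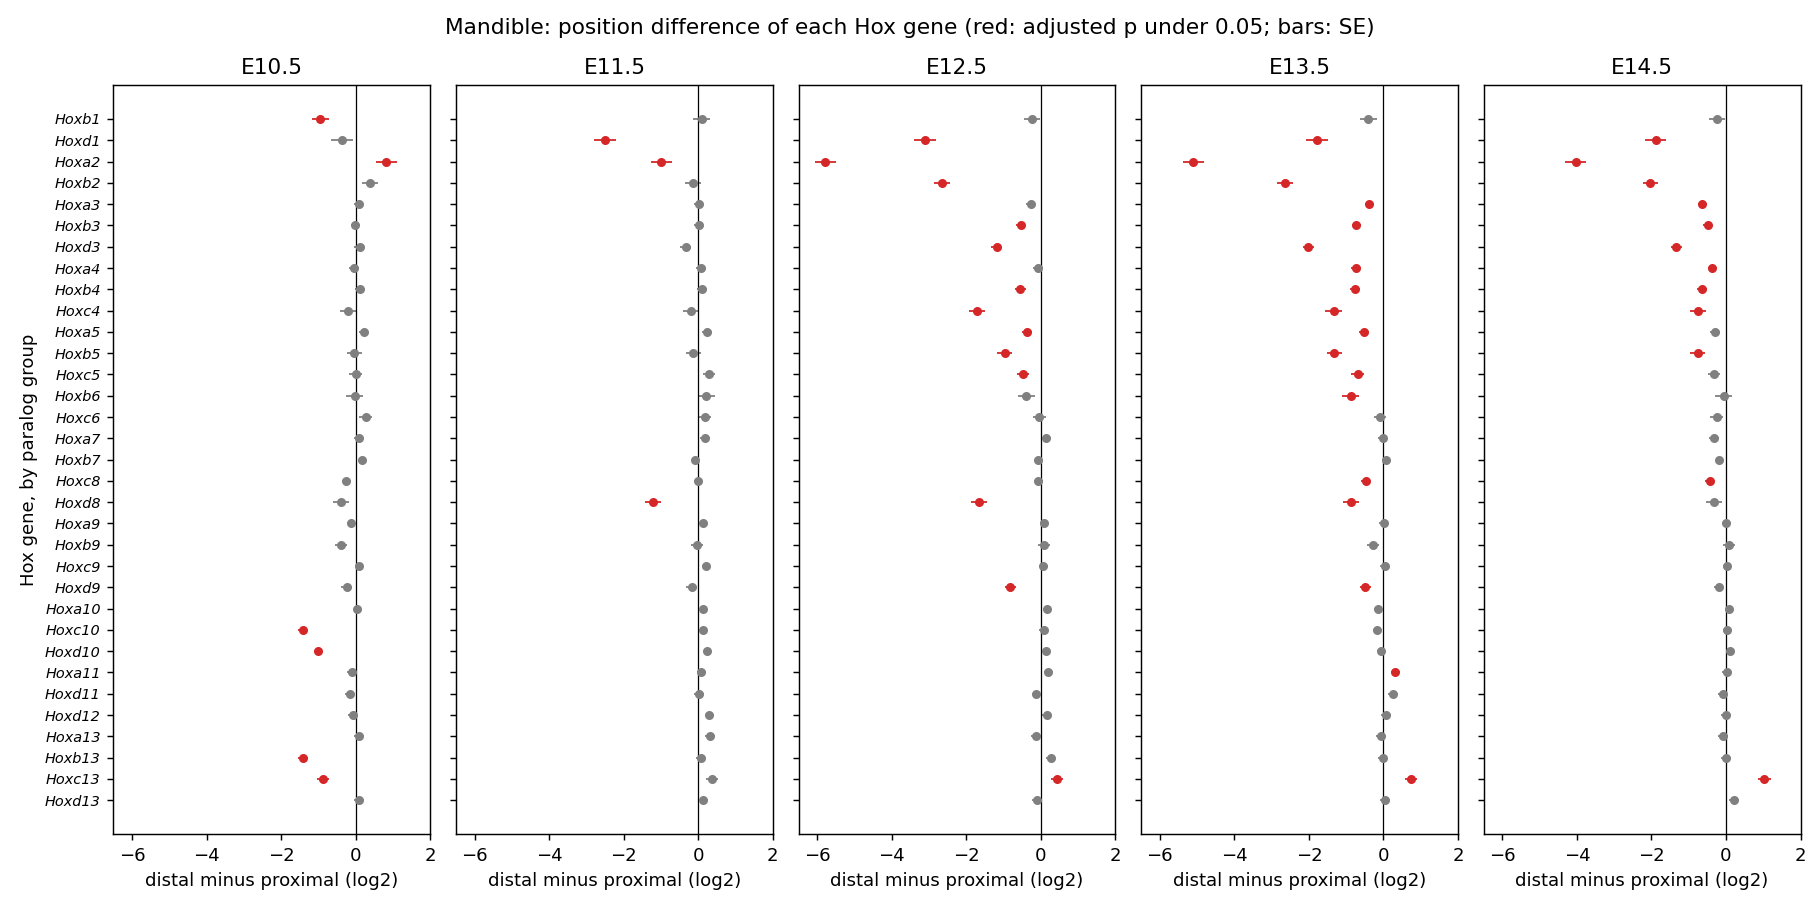
Difference of log2 signal between distal and proximal mandible for each of the 33 Hox genes at each age, ordered by paralog group from the top, with bars for the SE and red for an adjusted p under 0.05. At E10.5 the called genes are mostly of groups 9 to 13, and from E12.5 the upper rows, groups 1 to 5, lie to the left, with Hoxa2 at −5.78 at E12.5.

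1 array of the proximal mandible at E13.5 stood apart in Hox genes. In replicate 2, Hoxb6 read 6.16 against 4.39 and 3.75 in the other 2 arrays, Hoxb9 6.02 against 4.88 and 4.85, Hoxb5 6.48 against 5.54 and 4.95, Hoxa5 8.20 against 7.21 and 7.31, and Hoxc4 8.98 against 7.82 and 7.76. Ranked by how far a gene of that array exceeded both of its fellows, these 5 Hox genes were among the first 10 of all 18193 genes and Hoxb6 was the first. In the same array Ttr, made by choroid plexus, read 6.43 against 11.97 and 13.31, Oc90, an inner ear otoconia gene, 9.06 against 10.67 and 11.25, and Col2a1, the main cartilage collagen, 10.59 against 12.21 and 12.36. Their part in the Hox values was not tested. Without that array 13 Hox genes were called at E13.5, and Hoxb6 (−0.18, adjusted p = 0.384), Hoxa5, Hoxc5, Hoxa3 and Hoxd9 lost their calls. Hoxa2 kept a difference of −5.02 and Hoxd3 one of −1.90, while Hoxc4 went from −1.34 to −0.94. In the proximal mandible, 5 in place of 9 Hox genes then fell from E13.5 to E14.5, without Hoxa5, Hoxb6, Hoxc4 and Hoxc5. Over the mean of all ages 19 of 33 were still called, Hoxa5 being the one lost. The counts without that array are given without their shares of all genes.

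The choice of probe set mattered for groups 3 to 5. The chosen probe set of Hoxb3 was brighter but nearly flat and gave −0.35 ± 0.05 over the mandible. Another Hoxb3 probe set read 6.88, 7.47 and 6.88 in the proximal mandible at E12.5 and 8.16, 8.09 and 7.56 at E13.5, against 3.22 to 3.98 distally at these 2 ages. Its difference was −2.14 ± 0.10 over the mandible and −4.39 ± 0.22 at E13.5, where the chosen set gave −0.73 ± 0.12. For Hoxa5 the chosen probe set gave −0.15 ± 0.06 and the other −1.16 ± 0.10. The second probe set of Hoxa5 read 7.25, 8.99 and 7.11 proximally and 5.72, 4.97 and 5.25 distally at E13.5. For Hoxa3 the 4 probe sets ran from −0.01 to −0.98, and for Hoxc5 the 3 ran from −0.24 to −0.64. The 2 probe sets of Hoxd8 were alike, at −0.89 and −0.84. With every probe set as a unit 21 Hox genes had at least 1 called set in the mandible and 8 in the maxilla. In the interaction described below 18 did. This unit was chosen after seeing the data. Genes with several probe sets have more chances under it, and no share of all genes under that rule is given here.

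**Figure D3:**
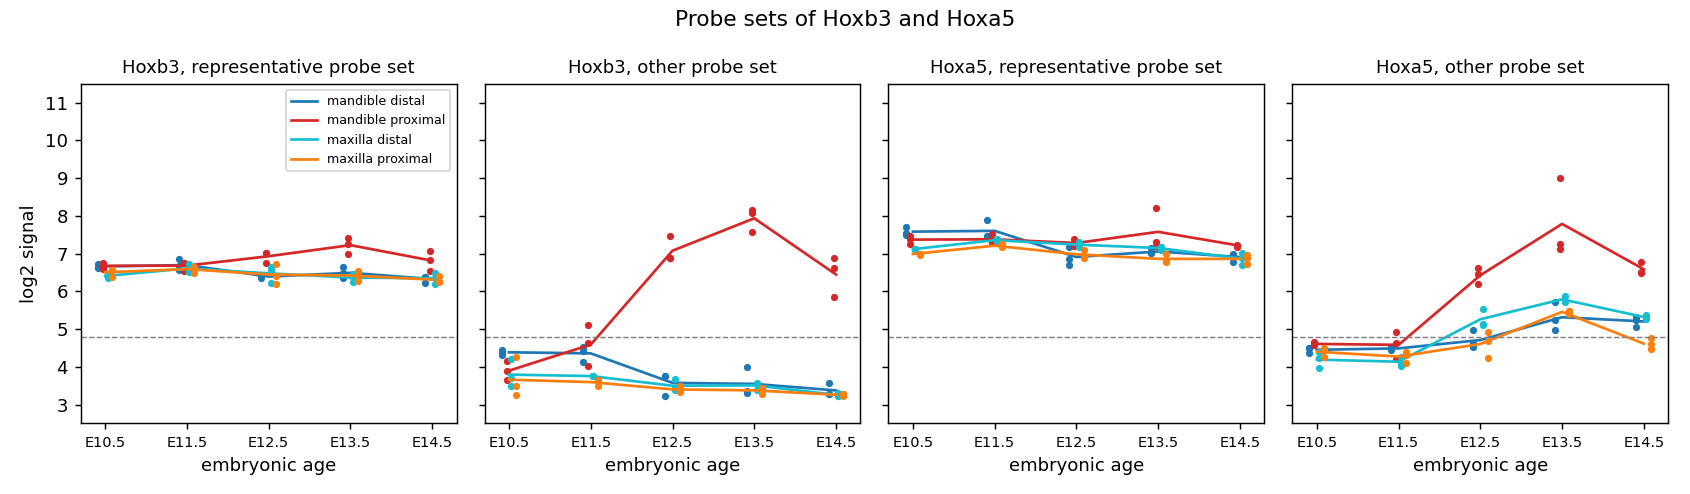
Log2 signal of 2 probe sets of Hoxb3 and 2 of Hoxa5 on every array by embryonic age, as points with lines through the means of 3 arrays, coloured by jaw and position, with a dashed line at 4.78. The representative set of Hoxb3 stays near its E10.5 level in all groups, while the other set rises in the proximal mandible to between 7.56 and 8.16 at E13.5.

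In the maxilla, 7 of 33 Hox genes differed between positions on average, against 50.6% of all genes. At 2-fold limma called 0 Hox genes, against 2.65% of all genes, and 8 had an unadjusted p under 0.05, against 54.7%. Lower distally were Hoxa2 (−0.77 ± 0.13), Hoxd1 (−0.57 ± 0.13) and Hoxb2 (−0.38 ± 0.09). Higher distally were Hoxd8 (0.99 ± 0.10), Hoxd9 (0.34 ± 0.07), Hoxd3 (0.31 ± 0.07) and Hoxa5 (0.17 ± 0.06). Of groups 1 to 5, 3 of 13 were thus lower (19% of all genes) and 2 higher (31.6%), with a median of 0.03 against 0.04 over all genes. At single ages the called Hox genes numbered 3 at E10.5 (20.2% of all genes), 2 at E11.5 (34.7%) and 5 at E12.5 (39%). For E13.5 they numbered 3 (15.7%) and for E14.5 they numbered 4 (33.7%).

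Hoxa2 in the maxilla stayed between 4.10 and 4.99 on all 15 distal arrays. Proximally it reached 7.05, 6.85 and 6.08 at E13.5, above every distal array of that age, and the difference was −1.77 ± 0.28 (adjusted p = 2.95e-06). It then stood at 4.35, 4.29 and 4.55 at E14.5, a drop of 2.26 ± 0.28 from E13.5 within the batch, after a rise of 1.51 ± 0.28 from E12.5. Hoxb2 followed from E13.5 to E14.5, where it fell by 0.70 ± 0.21 in the proximal maxilla. At E13.5 Oc90 read 10.31, 10.33 and 10.28 in the proximal maxilla, against 6.01, 6.00 and 5.98 at E12.5, and was still at 9.68 to 9.83 at E14.5. Its part in the Hoxa2 values was not tested.

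The 3 calls of the maxilla at E10.5, Hoxa2, Hoxb2 and Hoxb1, depended on single arrays. In replicate 2 of the proximal group Hoxa2 read 6.45 against 4.29 and 5.23, Hoxb2 7.96 against 6.36 and 6.82, and Hoxb1, a gene of the fourth hindbrain segment, 5.29 against 3.30 and 3.37. No other array of the 60 had Hoxb1 above 4.60. The same array exceeded both fellows in the neural genes Neurog2 (7.26 against 4.73 and 4.71), Olig3 (6.24 against 4.11 and 4.42) and Atoh1 (6.43 against 5.08 and 5.37), named after their values were seen. Its largest excess was in Aldh1a1 (9.07 against 4.19 and 4.78), and the choroid plexus gene Ttr read 8.985 against 6.19 and 6.56. In replicate 3 of the distal group Neurog2 was also 6.86 and Aldh1a1 9.62, while Hoxa2 read 4.58, Hoxb2 6.12 and Hoxb1 3.62. The neuron markers Stmn2 and Prph did not set it apart, at 12.53, 12.65 and 12.44 and at 8.09, 8.40 and 8.79 over the 3 arrays. The part of such tissue in the Hox values was not tested. Without that array 0 of the 3 kept a call, with Hoxa2 at −0.29 (adjusted p = 0.558), Hoxb1 at −0.04 and Hoxb2 at −0.40. Without distal replicate 1 or 2 a single one kept it. The maxilla mean of Hoxa2 was −0.66 without it and stayed called.

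Hoxd1, the HoxD member of paralog group 1, kept a course apart from the other anterior genes. At E10.5 its 12 arrays ran from 3.50 to 4.47 in both jaws and positions, all under the 25th percentile level of 4.78. In the distal maxilla it read 6.21, 5.85 and 5.98 at E11.5, 10.73, 10.71 and 10.69 at E12.5, 8.99, 8.88 and 8.90 on the following day and 7.24, 7.28 and 7.15 at E14.5. In the proximal maxilla it read 7.28, 7.30 and 7.32, next 9.74, 9.65 and 9.96, next 9.18, 9.08 and 9.02, and last 9.16, 9.12 and 9.26. The distal maxilla was thus lower at E11.5 (−1.29 ± 0.29), higher at E12.5 (0.93 ± 0.29) and lower again at E14.5 (−1.96 ± 0.29), and at E13.5 the difference was not called. Distally Hoxd1 fell by 1.79 ± 0.29 from E12.5 to E13.5, when 3 Hox genes changed (35.5% of all genes), and fell by 1.70 ± 0.29 from E13.5 to E14.5, as the 1 Hox gene that changed (15.6%). In the mandible it was lower distally at the 4 ages from E11.5, by −1.78 to −3.11, and the distal arrays stayed at or under 6.69. The E11.5 proximal arrays were spread, at 8.18, 5.54 and 6.90. Replicate 1 of that group, which had the 8.18, also read highest in Hoxc4, Hoxd8 and Hoxd9. In it the sarcomere gene Myom2 stood at 7.58 against 3.99 and 5.41, the largest excess of any gene there, and its part in the Hox values was not tested. Without that array and another mandible array of E11.5, both chosen after seeing that their signals ran high as a whole, the mandible mean of Hoxd1 was −1.79.

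Hoxd8 and Hoxd9, neighbours in the HoxD cluster, had their higher signals at the later ages in both jaws, with a Pearson r of 0.961 over the 20 group means, a description across groups that share arrays. Hoxd8 in the distal mandible had means of 5.54, 6.44, 7.46, 8.92 and 9.45 at the successive ages, and in the distal maxilla 5.88, 5.93, 8.41, 8.96 and 9.20. Steps within a batch that were called for Hoxd8 were 0.90 ± 0.22 and 1.71 ± 0.22 from E10.5 to E11.5 in the distal and proximal mandible. The proximal arrays of E11.5 were spread, at 8.469, 6.895 and 7.603, the first being the replicate 1 described for Hoxd1. In the maxilla the called steps were 0.55 ± 0.22 distally and 2.09 ± 0.22 proximally from E12.5 to E13.5. Over that step 4 Hox genes changed in the proximal maxilla (35.9% of all genes), and 3 did from E13.5 to E14.5 (16.8%), when Hoxd8 fell by 0.66 ± 0.22. The sign of their position difference was opposite in the jaws. At E12.5 Hoxd8 read 7.46, 7.46 and 7.45 in the distal and 8.89, 9.29 and 9.18 in the proximal mandible. In the maxilla at that age it read 8.31, 8.52 and 8.39 distally and 6.03, 6.15 and 6.26 proximally, with no overlap in either jaw. These are differences of −1.67 ± 0.22 in the mandible and 2.26 ± 0.22 in the maxilla. Hoxd9 had −0.82 ± 0.15 and 0.55 ± 0.15 at the same age.

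**Figure D4:**
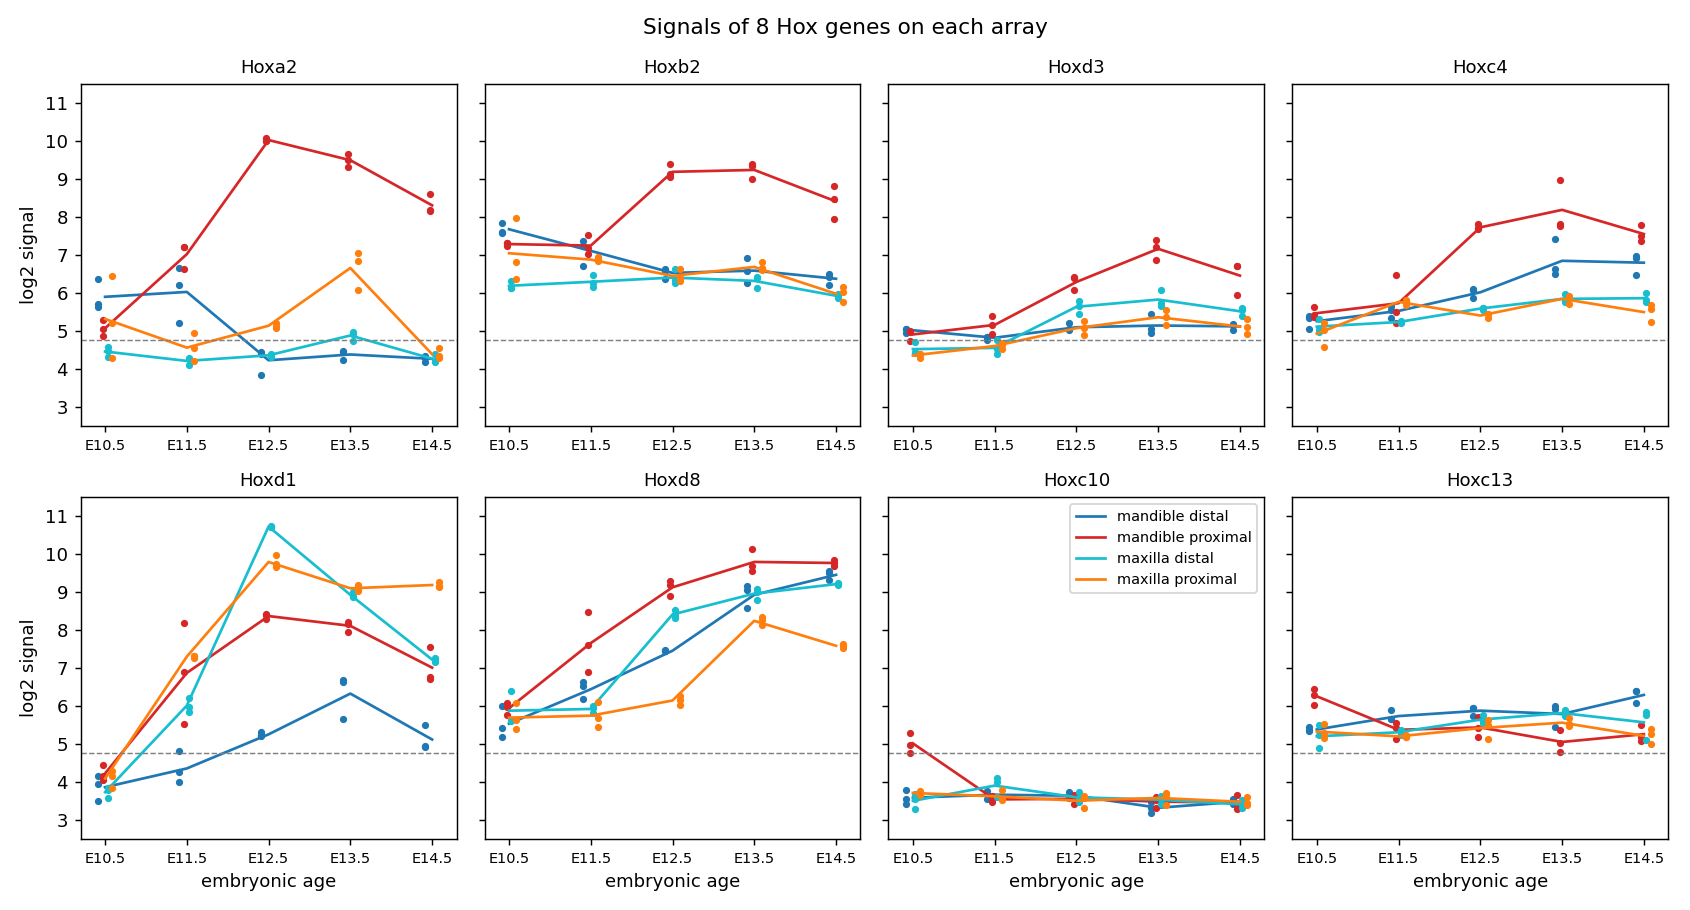
Log2 signal of 8 Hox genes on each of the 60 arrays by embryonic age, as points with lines through the means of 3 arrays, coloured by jaw and position, and a dashed line at 4.78. Hoxa2, Hoxb2, Hoxd3 and Hoxc4 separate in the proximal mandible from E12.5, Hoxd1 peaks in the distal maxilla at E12.5 near 10.7, Hoxd8 is highest at E13.5 or E14.5 in all 4 pieces, and Hoxc10 is raised only at E10.5 in the proximal mandible.

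Of the 14 posterior genes in groups 9 to 13, 4 were lower in the distal mandible at E10.5. In the proximal mandible Hoxc10 read 4.77, 4.99 and 5.30, and the other 57 arrays of the series did not pass 4.12. Hoxd10 read 4.18, 4.09 and 4.14, against 3.11, 3.13 and 3.12 distally. Both are genes of the lumbar trunk and hindlimb, and only the Hoxc10 mean in that group was above 4.78. Hoxb13, a gene of the tail end, read 5.61, 6.10 and 6.07 against 4.46, 4.63 and 4.46, and Hoxc13 6.03, 6.30 and 6.44 against 5.36, 5.45 and 5.35. The differences were −1.43 ± 0.12 for Hoxc10, −1.41 ± 0.13 for Hoxb13, −1.02 ± 0.10 for Hoxd10 and −0.87 ± 0.17 for Hoxc13, with adjusted p-values from 6.23e-13 to 8.23e-05. The other 10 of the 14 were not called, against 9.26% of all genes lower and 9.83% higher. Of groups 6 to 8 limma called 0 of 6. Over all 33 Hox genes 8 had an unadjusted p under 0.05, as did 29.4% of all genes. Other probe sets of Hoxa10, Hoxa9 and Hoxd13 were lower distally, with −0.64 ± 0.10, −0.72 ± 0.11 and −0.43 ± 0.13, while the representative sets of these genes were not called, at 0.04, −0.12 and 0.09. The Hoxa10 set stayed under 4.78 at both positions. Hoxb1 was also lower distally, at 3.45, 3.54 and 3.49 against 4.38, 4.34 and 4.60, all under 4.78.

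In these same 3 proximal arrays the caudal homeobox genes Cdx2 and Cdx4, which act upstream of posterior Hox genes, were higher, at 6.29, 6.76 and 6.72 and at 4.07, 4.05 and 3.95, against 5.60, 5.82 and 5.59 and 3.12, 3.15 and 3.10 distally. All these Cdx4 values lay under 4.78. Cdx1, of the same family, had group means of 4.83 proximally and 4.71 distally. Tbx6, a gene of the presomitic mesoderm, was higher proximally by 0.76 (5.44, 5.51 and 5.68 against 4.79, 4.91 and 4.66). Mesp2, another gene of that tissue, ran from 6.90 to 7.01 proximally and from 6.74 to 7.28 distally, which overlap. Hoxb5os, a non-coding RNA of the HoxB cluster, read 7.44, 7.51 and 7.59 against 6.06, 6.08 and 5.82. Of the 6 cardiac markers 5 were higher proximally and 1 distally, and their summed signal ran from 12.55 to 12.72 proximally and from 8.06 to 8.25 distally on the log2 scale. The ventricular gene Myl2 read 11.66, 11.73 and 11.80, against 4.52, 4.49 and 4.61 distally. Over the 20 group means the 5 genes most like Hoxc10 were Myl7, Pln, Tnni3, Mybpc3 and Nppb, genes of heart muscle. Their r ran from 0.858 to 0.944, in a search added after the values were seen. The Hoxc10 mean was 5.02 in the proximal mandible at E10.5 and between 3.33 and 3.91 in every other group. The r values therefore rest on that 1 group and do not describe likeness over the others. The part of heart and trunk tissue in the Hox values was not tested. By E11.5 the proximal mandible had lost the pattern within the same batch. Hoxc10 fell by 1.47 ± 0.12, Hoxb13 fell by 1.29 ± 0.13, Hoxc13 fell by 0.88 ± 0.17, Hoxd10 fell by 0.87 ± 0.10 and Hoxb1 fell by 0.98 ± 0.22. In all 11 Hox genes changed there over this step (39.9% of all genes) and 3 in the distal mandible (29.6%). Hoxa2, Hoxd1 and Hoxd8 rose proximally, by 1.95 ± 0.28, 2.64 ± 0.29 and 1.71 ± 0.22. The position difference itself shifted for 7 Hox genes from E10.5 to E11.5 (11.8% of all genes), all by at least 2-fold (1.19%).

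Hoxc13, known for hair, nail and tongue epithelium, took the other direction later and was the Hox gene higher in the distal mandible on average (0.34 ± 0.07). Its distal arrays read 6.40, 6.09 and 6.40 at E14.5 and its proximal ones 5.51, 5.18 and 5.09, a difference of 1.03 ± 0.17 (adjusted p = 2.75e-06). At E12.5 and E13.5 the difference was 0.44 ± 0.17 and 0.73 ± 0.17. All 5 surface epithelium markers were higher distally in the mandible, with a median difference of 0.79, and their part in the Hoxc13 values was not tested.

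Jaws were compared at E11.5 and E12.5, where both shared a batch. At E12.5 the proximal pieces differed in 12 Hox genes (43.6% of all genes), 8 of them by at least 2-fold (5.55%). 9 of the 13 genes of groups 1 to 5 were higher in the mandible (27%), led by Hoxa2 (4.88 ± 0.28), Hoxb2 (2.73 ± 0.21), Hoxc4 (2.32 ± 0.22), Hoxd3 (1.21 ± 0.15) and Hoxb5 (1.06 ± 0.21). Hoxd8 (2.97 ± 0.22) and Hoxd9 (1.16 ± 0.15) were higher too, and Hoxd1 was lower (−1.42 ± 0.29). The distal pieces differed in 3 (23.2%), all lower in the mandible (10.9%), with Hoxd1 at −5.45 ± 0.29, Hoxd8 at −0.95 ± 0.22 and Hoxd3 at −0.54 ± 0.15. At E11.5 the distal pieces differed in 6 Hox genes (25.7%) and the proximal pieces in 6 (32.1%), with Hoxa2 higher in the mandible at both positions, by 1.81 ± 0.28 and 2.46 ± 0.28.

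The position difference itself differed between the jaws for 17 Hox genes (39.9% of all genes), and for 5 of them by at least 2-fold (2.76%). The 5 were Hoxa2 (−2.24 ± 0.18), Hoxd8 (−1.88 ± 0.14), Hoxd1 (−1.36 ± 0.18), Hoxd3 (−1.26 ± 0.10) and Hoxb2 (−1.04 ± 0.13), given as mandible minus maxilla. 12 of the 13 genes of groups 1 to 5 were among the 17, Hoxb1 being the exception, all with a lower value in the mandible (23.8%). Hoxc5 lost its call (−0.23, adjusted p = 0.0647) without replicate 2 of the proximal mandible at E13.5. Without E10.5 15 were called, a count given without its share of all genes, and Hoxb13 and Hoxd10 turned to 0.01 and 0.04.

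The genes most like Hoxa2 over the 20 group means, among 6135 non-Hox genes with a mean of at least 6 in some group and a span of at least 1, were Gm15050 (r = 0.904), 3110099E03Rik (0.880), BC006965 (0.838), Cxcl13 (0.833), Slc14a1 (0.811), Oc90 (0.777), Meis1 (0.774), Zic4 (0.761), Zfp703 (0.751) and Rbm46 (0.740). These correlations describe group means from the same arrays and carry no test. In RefSeq Gm15050 lies within the span of Hoxa3 in the HoxA cluster. It read 8.06, 8.10 and 7.97 in the proximal mandible at E12.5 against 5.82, 5.93 and 6.17 distally, and its difference was −1.03 ± 0.06 over the mandible and 0.08 ± 0.06 over the maxilla. It was not called in the mandible at E10.5 or E11.5. Whether its probe set also detects transcripts of Hoxa3 was not tested.

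Hox proteins bind DNA with the TALE homeodomain cofactors of the Pbx, Meis and Pknox families. Of the 9 on the list 8 were measured, and in the mandible 5 were lower distally (17.9% of all genes) and 1 higher (18.3%), with a median of −0.16 against 0.01 over all genes. Meis1 gave −0.94 ± 0.06 and Pknox2 −0.74 ± 0.05, and Meis3 gave 0.15 ± 0.05. Meis1 read 10.41, 10.52 and 10.38 in the proximal and 8.38, 8.31 and 8.30 in the distal mandible at E12.5. At E10.5 it was higher distally, at 9.65, 9.55 and 9.66 against 9.09, 9.12 and 9.11. In the maxilla 4 cofactors were lower (19% of all genes) and 3 higher distally (31.6%), among them Meis1 at 0.43 ± 0.06. Its maxilla means at E10.5 and E11.5 were 8.88 and 9.34 distally and 7.56 and 7.92 proximally. At E12.5 and E13.5 they were 8.52 and 8.84 distally and 8.95 and 9.29 proximally, the other way. At E14.5 they were 8.75 and 8.50.

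Of 14 genes upstream of Hox clusters (retinoic acid enzymes and receptors, Cdx genes, hindbrain regulators) 11 were measured, with 6 lower and 1 higher in the distal mandible and a median of −0.15. The shares of all genes were 17.9% lower and 18.3% higher, here and for the mandible counts that follow. Gbx2, a homeobox gene of the anterior hindbrain and arches, gave −1.44 ± 0.11, Cyp26a1, which degrades retinoic acid, −0.96 ± 0.06, and Aldh1a2, which makes it, −0.86 ± 0.11. Group means of Gbx2 were 9.41 and 7.85 proximally and 6.74 and 4.85 distally at E10.5 and E11.5. At E14.5 they were 4.58 and 4.51. Those of Cyp26a1 were 8.22 proximally and 6.58 distally at E11.5, and 7.31 and 7.58 at E14.5, the other way. Cyp26b1 was the one called higher distally on average, at 0.44 ± 0.09. In the maxilla 3 were lower (19%) and 4 higher (31.6%). Of 16 Polycomb genes, which keep Hox clusters silent, 15 were measured, with 6 higher and 0 lower distally in the mandible and a median of 0.04 against 0.01 over all genes. Of the 8 Trithorax and H3K27 demethylase genes, which oppose them, 3 were higher and 0 lower, with a median of 0.04. Of 11 non-coding and flanking genes of the clusters 5 were measured, and Hoxb5os alone was called, lower distally (−0.41). Most of this came from E10.5 (−1.52), and the other ages gave 0.09, −0.09, −0.30 and −0.20 in order, of which only E13.5 was called. Of 3 genes placed downstream of Hoxa2, Wnt5a was higher distally (0.98 ± 0.07), Six2, which Hoxa2 represses in the second arch, was lower (−0.99 ± 0.05), and Meox1 stood at 0.06.

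Markers of other tissues moved with position in the mandible as well, where the Hox genes of groups 1 to 5 were lower distally. Lower distally were 6 of 6 skeletal muscle markers (median −1.66), 5 of 5 cartilage markers (−1.02), 6 of 6 macrophage markers (−0.31), 4 of 4 measured glia markers (−0.47), 3 of 6 neuron markers and 4 of 5 endothelium markers. Of the 3 measured hindbrain and visceral motor markers 1 was lower distally. Of the 6 markers of occipital somites and hypoglossal muscle precursors, which come from a Hox-positive level, 2 were higher and 2 lower. In the maxilla, muscle (5 of 6), cartilage (4 of 5), neuron (6 of 6) and glia markers (4 of 4) were lower distally too. The share of all genes lower distally in the maxilla was 19%. The other marker lists are not given for the maxilla here. The share of each of these tissues in the Hox signals was not tested.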

How the data were processed

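Values are log2 probe set signals of 60 Affymetrix arrays as the authors deposited them, which the submitters' processing notes attribute to RMA (background correction, normalization between arrays, summary of probes). Its version, and whether all arrays were normalized together, are not given in the sources used here. Per the labels' protocols, 3 micrograms of total RNA were used per array and labelled with biotin, and the titles name 4 batches. With 3 arrays a group, array number sets the precision.

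Control probe sets (64) were left out, leaving 45037. Genes were named by single symbols of the platform annotation. 3 probe sets with several Hox symbols were not assigned. 48 probe sets named 33 Hox genes, 1 per gene by the highest mean. limma 3.58.1 (R 4.3.3) fitted 20 group means over 18193 genes with 40 residual degrees of freedom, eBayes with trend and Benjamini-Hochberg adjustment, and was tested on simulated data. Level errors are spreads of 3 arrays, and other errors are SE. All 33 Hox genes were eligible for naming, in the other lists up to 4 members, and for likeness to Hoxa2 10 genes. Other genes named were chosen after their values were seen. The members and lists were chosen with earlier results of these data known. Same-numbered distal and proximal arrays were not paired: the correlation of deviations passed 0.1 in 10 of 30 such pairs of arrays (median 0.01). At maxilla E10.5 all 3 passed it (0.34, 0.17 and 0.265), and with the block its 3 calls stood. Alternatives covered normalization, probe set choice, dim genes, the arrays fitted, trend, replicate block and arrays left out. Hox counts from these alternatives are given without shares of all genes. Figures were drawn with matplotlib 3.10.9. Protein sequences were not used here.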

Additional observations from a re-analysis of the deposited data

Results flagged for a closer look

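The distal minus proximal difference of 17 Hox genes differed between the jaws, as an interaction in the limma fit at an adjusted p under 0.05. The values, mandible minus maxilla on the log2 scale, were Hoxa2 (−2.24), Hoxa3 (−0.27), Hoxa4 (−0.26), Hoxa5 (−0.32), Hoxb13 (−0.3), Hoxb2 (−1.04), Hoxb3 (−0.34), Hoxb4 (−0.3), Hoxb5 (−0.69), Hoxc10 (−0.28), Hoxc4 (−0.88), Hoxc5 (−0.28), Hoxd1 (−1.36), Hoxd10 (−0.2), Hoxd3 (−1.26), Hoxd8 (−1.88), Hoxd9 (−0.72). For Hoxd8, Hoxd9, Hoxd3 and Hoxa5 the position difference was called in both jaws and with opposite signs. For Hoxa2, Hoxb2 and Hoxd1 it was called lower distally in both jaws. The maxilla mean of Hoxd1 combines ages of opposite sign, lower distally at E11.5 and E14.5 and higher at E12.5. Without the E10.5 arrays the interaction of Hoxb13, Hoxc10 and Hoxd10 was 0.01, −0.05 and 0.04, and none of these was called. Hoxc5 was not called (−0.23, adjusted p = 0.0647) without replicate 2 of the proximal mandible at E13.5. Without that array the mandible position difference of Hoxa5 was not called either (−0.09, adjusted p = 0.12).

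The same difference within the mandible shifted between E10.5 and E11.5 for 7 Hox genes, again as a tested interaction. The shifts, E11.5 minus E10.5, were Hoxa2 (−1.82), Hoxb1 (1.04), Hoxb13 (1.48), Hoxc10 (1.55), Hoxc13 (1.23), Hoxd1 (−2.15), Hoxd10 (1.25). Both ages belong to the same labelled batch. Among Hoxb1, Hoxc10 and Hoxd10 only Hoxc10 had a group mean over 4.78, in the proximal mandible at E10.5, so the sizes for Hoxb1 and Hoxd10 cannot be read as folds. No group had enough arrays to look for a single array far from the others by a formal rule.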

How the results depend on the processing

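Of 1958 recomputed Hox gene differences, 1760 kept direction and call, 193 lost the call and 5 reversed. The 5 were Hoxb13 (0.078), Hoxc10 (0.017) and Hoxd10 (0.102) in the mandible mean and Hoxb13 (0.011) and Hoxd10 (0.036) in the interaction, all without E10.5. Fitted only on the arrays compared, position calls became 1 in the mandible at E11.5, 0 in the maxilla at E10.5 and 7 at E13.5. Jaw calls became 3 for the proximal pieces at E11.5 and 5 for the distal pieces at E12.5. Age calls became 5 for the proximal mandible from E13.5 to E14.5, 7 for the distal maxilla from E12.5 to E13.5 and 4 from E13.5 to E14.5. The change of the mandible position difference from E13.5 to E14.5 gave 1 in that fit and 1 with a gene's probe sets averaged. The cause was not tested. With dim genes left out, 4 Hox genes were called in each of the 3 means, since fewer were tested, and at the 50th percentile 16 genes were above it.

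Leaving out all arrays of a replicate number in turn gave 16 to 17 calls for the mandible mean, 6 to 8 for the maxilla and 12 to 15 for the interaction. Leaving out 1 array at a time, single-age counts in the maxilla ran from 0 to 3 at E10.5, 1 to 4 at E11.5 and 1 to 3 at E13.5. The arrays behind the ends were distal replicate 3 and proximal replicates 1, 2 (1 call each) and 3 (4 calls) at E11.5, and distal replicate 1 and proximal replicate 3 at E13.5. From E13.5 to E14.5 they ran from 1 to 3 in the distal mandible, 5 to 12 in the proximal mandible, 1 to 3 in the proximal maxilla and 0 to 2 for the change of the mandible difference. The low counts came without distal mandible replicate 3 of either age, without proximal mandible replicate 2 of either age, and without proximal maxilla replicate 2 of either age. From E12.5 to E13.5 they ran from 1 to 3 in the distal and 3 to 7 in the proximal maxilla. With the replicate number as a block, 19, 8 and 16 Hox genes were called in the mandible, maxilla and interaction. The labels do not tell whether same-numbered distal and proximal arrays share embryos. The highest correlation of their deviations was 0.438, for replicate 1 of the maxilla at E13.5.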
